A study of Mus musculus with 24 samples.

Results

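The miRNAs described are the entries numbered mmu-miR-5097 to mmu-miR-5136 on a mouse miRNA array, a block of consecutive catalogue numbers. They were taken by the number in the name, with any letter or arm, leaving out mmu-miR-5100, and the block was proposed with earlier results of these data known. This gave 37 of the 1881 miRNAs on the array. A miRNA is a short RNA that Argonaute proteins carry to target mRNAs, which it recognises through its seed, the bases near its 5′ end. It is usually cut from a hairpin precursor and is named with a running number, so that entries with close numbers were named at about the same time. Entries of such a block need share no sequence or function, and short pieces of longer RNAs can carry the same letters as a catalogued miRNA.

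Liver RNA of 3 male mice was hybridized, giving 8 groups with 1 array from every mouse. Total RNA with its small RNAs came from tissue placed in RNAlater at 0 h (fresh) or after 96 h at room temperature (stored), each with or without on-column DNase digestion. RNA depleted of small RNAs came from fresh tissue through a kit that largely loses them, with DNase digestion. It was hybridized untreated or after incubation at 37 °C with 0 U, 0.026 U or 0.67 U of RNase on 3 µg of RNA, then purified again with small RNAs. The methods state that the depleted RNA still held some small RNAs. They name an Il1a knock-out strain on C57BL6 for the mice of the tissue series of the study. The strain and age of the 3 liver donors were not separately given in the sources used here. All groups came from the same 3 livers, and each mouse had a slide of its own, scanned at once, so mouse and slide cannot be told apart. The animal was the replicate (n = 3).

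The RNA integrity number (RIN), which is higher for more intact RNA, was 8.8 to 9 in fresh and 2.3 to 2.5 in stored RNA. In depleted RNA it was 9.2 to 9.4 untreated, 9 to 9.2 at 0 U, 6 to 7 at 0.026 U and 2.4 to 2.9 at 0.67 U. The liver miRNA mmu-miR-122-5p was detected on every fresh and stored array, at 6767 to 13686 and 3030 to 6117 intensity units. It was also detected on all 6 untreated and 0 U depleted arrays, at 1982 to 3452 units. mmu-miR-192-5p of liver epithelium gave 619 to 1053 units on the fresh arrays and 17 to 30.4 on these depleted arrays. Of 11 markers of liver and other cells, 7 were detected on all 6 fresh arrays and 4, those of muscle and neurons, on none. On the stored arrays 6 were detected on all and 4 on none. The muscle markers differed there, with mmu-miR-133a-3p detected on all, at 9.65 to 14.2 units, and mmu-miR-1a-3p on none, at -2.38 to -1.25. mmu-miR-200b-3p of bile duct epithelium, detected on all 6 fresh arrays, was detected on no stored array, and mmu-miR-144-3p of erythroid cells on 1. In bulk RNA, fewer cells of a type and less RNA per cell cannot be told apart. The total signal of all detected miRNAs was 55237 to 163493 units on fresh, 187378 to 362324 on stored, 7125 to 10043 on untreated and 0 U depleted, and 36325 to 177642 on RNase arrays.

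The labels of 1 mouse contradict each other. For mouse 9 the titles and the RNase entries swap the doses that the descriptions and extraction protocols give. The arrays were grouped by the descriptions, which the RIN values of 2.4 (0.67 U) and 6.0 (0.026 U) follow. The signals of the members followed the titles. In mouse 7, 18 of the 19 tested members were higher at 0.67 U than at 0.026 U, and in mouse 10 all 19 were, whereas in mouse 9 only 1 was. The median difference was 0.89, 1.25 and -0.64 glog2 in mice 7, 10 and 9. Over all 631 tested miRNAs it ran the same way, at 0.48, 0.95 and -0.48, with 450, 420 and 206 miRNAs higher at 0.67 U. RNase results are therefore given over both doses, and with and without mouse 9.

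RefSeq (build GRCm38.p6) held a mature sequence for 31 of the 37 members, matched by name, and none for mmu-miR-5099, mmu-miR-5107-3p, mmu-miR-5107-5p, mmu-miR-5112, mmu-miR-5127 and mmu-miR-5134-5p. The build named in the array files is an older one, and the positions below are those of RefSeq. The members shown first had the 4 largest fitted storage changes or a leading RNase change, and capitals mark the seed (bases 2 to 8).
mmu-miR-5126: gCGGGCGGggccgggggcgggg
mmu-miR-5128: cAAUUGGGgcuggcgagauggcu
mmu-miR-5131: cGGCGCCCcacggagccccgagc
mmu-miR-5135: aGGUCUAGguggcaagggcguccu
mmu-miR-5120: uUUGGGGCuguggugccaccagc
These 5 seeds differ, and no seed was shared between any of the 31 members. The sequence of mmu-miR-5126, at chr1:84695890-84695911 on the plus strand inside the span of Dner, consisted of G and C alone, with 77.3% G. mmu-miR-5131 had 87% G+C and lay at chr14:45657972-45657994 (minus) within Ddhd1. mmu-miR-5128 lay at chr2:37688212-37688234 (minus) within Strbp, and mmu-miR-5120 at chr4:44607536-44607558 (minus) within Pax5, a B cell transcription factor. mmu-miR-5135, at chr12:76533143-76533166 (minus), overlapped no other annotated gene.

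A further set is shown because it ties the block to other RNAs or sets both arms of a hairpin side by side.
mmu-miR-5121: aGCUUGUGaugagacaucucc
mmu-miR-5118: aAGGUUAGgccagccuggu
mmu-miR-5132-5p: gCGUGGGGugguggacucagg
mmu-miR-5132-3p: cUGAUGUUccccaucccgcag
mmu-miR-5121, at chr7:45126925-45126945 (minus), lay inside the C/D box snoRNA gene Snord33 at chr7:45126864-45126945, with the same end coordinate, within the ribosomal protein gene Rpl13a. Small nucleolar RNAs of this class guide methylation of ribosomal RNA. Of the 31 members 1 overlapped an annotated snoRNA, 27 lay inside the span of a protein coding gene and 3 overlapped no other gene. None overlapped any of the 430 tRNA or 65 rRNA genes of the annotation. The annotation gave gene spans without exons, and no tRNA or rRNA sequence was at hand, so a resemblance in sequence without an overlap was not tested.

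Runs of 12 bases within the members were searched on both strands of 32851 promoter windows of 300 bases, allowing overlaps. The most frequent run of mmu-miR-5118, aggccagcctgg (bases 7 to 18), was held by 72 windows (0.219%). That of mmu-miR-5126, gggcggggccgg (bases 3 to 14), was held by 259 (0.788%). Between these counts lay that of mmu-miR-5101, a member detected on no array, whose run tttgtttgtttt (bases 1 to 12) was held by 125 (0.381%). Over the 1679 mature miRNAs of RefSeq the median of this count was 6 windows, and 1.73% had a count as high as that of mmu-miR-5118. These runs were picked as the most frequent in each sequence and describe letters only.

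Each miRNA was read from 30 spots, and a member counts as detected where the scanner flagged its summed signal above background. Of the 37 members, 14 were detected on no array, or 37.8%, beside 53.3% of all miRNAs. These were mmu-miR-5098, mmu-miR-5101, mmu-miR-5106, mmu-miR-5107-3p, mmu-miR-5108, mmu-miR-5114, mmu-miR-5123, mmu-miR-5124a, mmu-miR-5124b, mmu-miR-5125, mmu-miR-5127, mmu-miR-5129-3p, mmu-miR-5129-5p and mmu-miR-5134-3p. A further 4 were detected on 1 to 4 arrays and could not be tested. The remaining 19 passed the filter of 5 arrays with detection and were tested. Of these, 7 met it only through the stored arrays, so that a difference with storage was built into their selection. They were mmu-miR-5113, mmu-miR-5116, mmu-miR-5118, mmu-miR-5122, mmu-miR-5130, mmu-miR-5133 and mmu-miR-5135. Only mmu-miR-5126 was detected on all 24 arrays. No spot of a member was saturated.

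The 16 tested members with a sequence had a median G+C content of 64.1% (47.6 to 100%), and the 12 undetected members with a sequence 48.8% (36.4 to 63.6%). The median was 58.3% over all 526 tested miRNAs with a sequence and 52.2% over all 1608 on the array. Across the 16 members G+C content had a Pearson correlation of 0.16 with the storage change in DNase-treated RNA, and across the 526 miRNAs one of 0.56. These values describe miRNAs read from the same arrays.

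**Figure D1:**
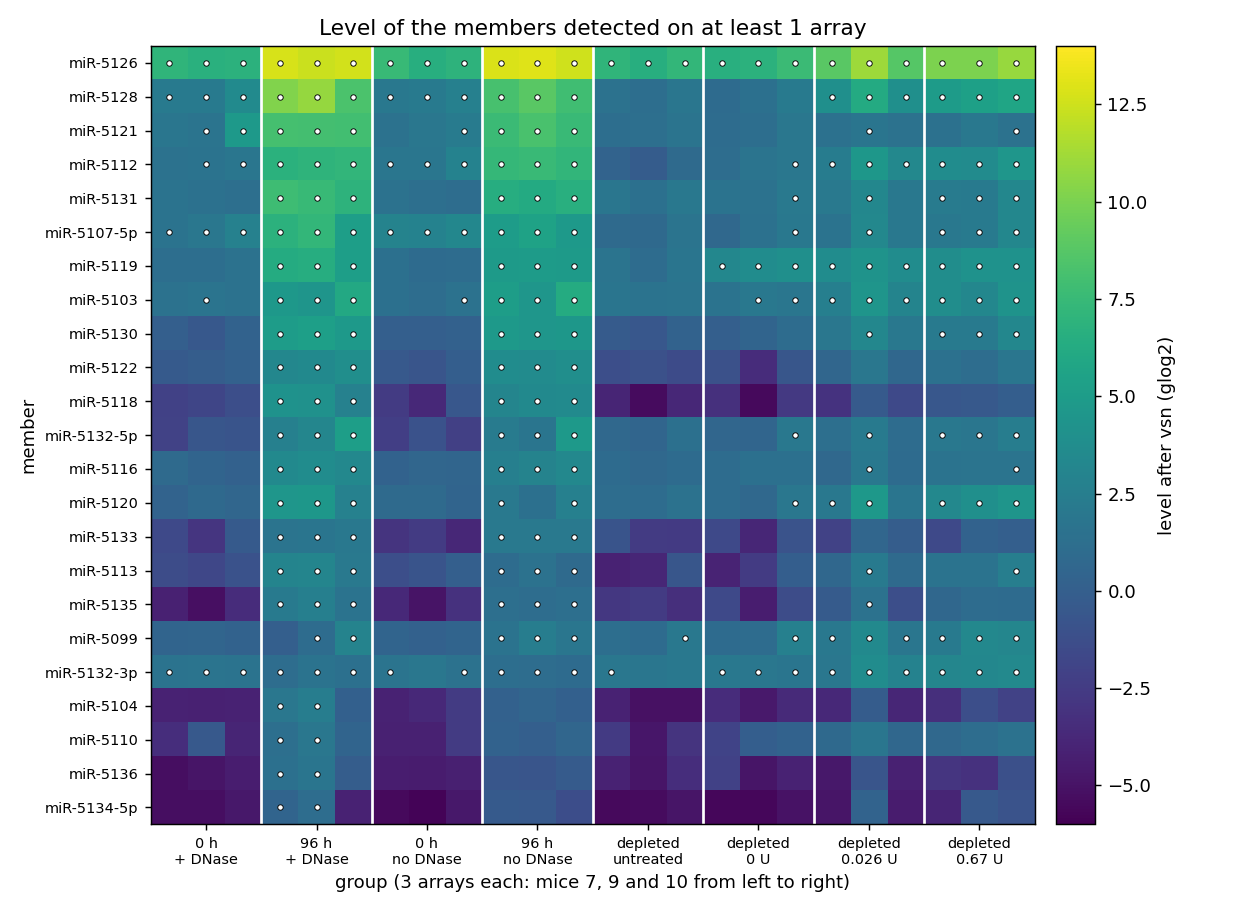
Level after variance stabilizing normalization (glog2, colour) of the 23 members detected on at least 1 array (rows, ordered by their level on the stored arrays) on the 24 arrays (columns, by group and mouse). White dots mark detection: 17 members were detected on all 6 stored arrays, and 3 on all 6 fresh arrays.

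The first question was how far the members appear in stored tissue. With DNase, 5.67 ± 1.53 (SD, n = 3) of the 37 members were detected at 0 h and 21.3 ± 2.08 (SD, n = 3) at 96 h. Without DNase there were 5.33 ± 1.53 and 18.7 ± 0.577 (SD, n = 3). Over both preparations the stored arrays held 14.5 more detected members than the fresh arrays. The two-sided exact permutation test within mice gave p = 0.00926, the smallest it can give. The test exchanged single arrays within each mouse over both DNase states, 216 arrangements. Its p-value therefore does not count the 3 animals as the units. On these arrays 17 members were detected on all 6 stored arrays, and 10 of them on no fresh array. The share of all miRNAs with these 2 patterns is not given, so the counts have no comparison. Over all 1881 miRNAs, with DNase, 299 ± 12.1 were detected in fresh and 643 ± 62.6 in stored RNA (SD, n = 3). Without DNase these numbers were 301 ± 36.3 and 623 ± 26.2 (SD, n = 3).

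**Figure D2:**
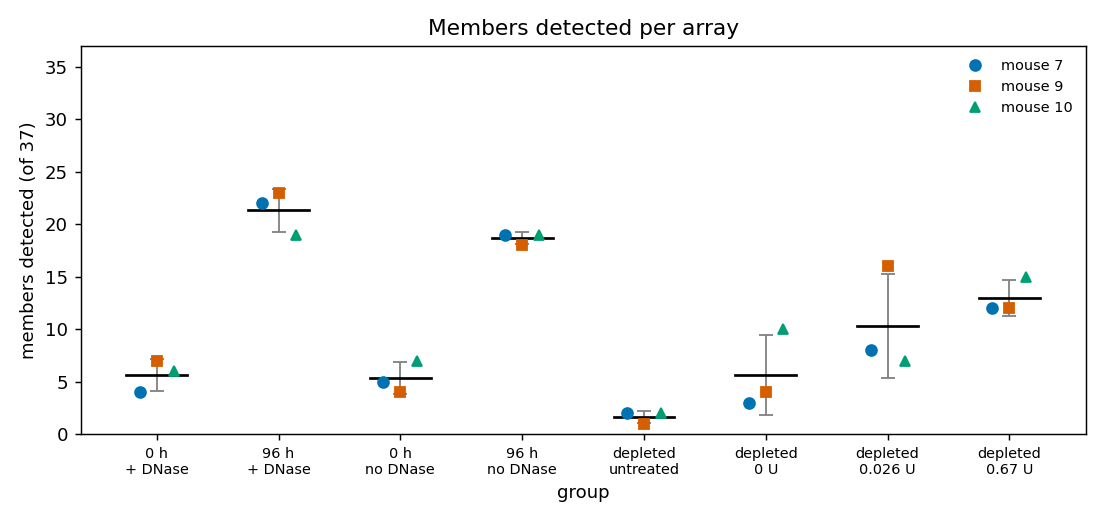
Number of the 37 members detected on each array (points, by mouse), with the mean (line) and SD (bar) of each group of 3. The stored arrays lie at 18 to 23, the fresh arrays at 4 to 7, and untreated depleted RNA at 1 or 2.

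In intensity units, before any normalization between arrays, all 19 tested members were brighter on every stored array than on any fresh array. Of these 19, 7 met the detection filter only through the stored arrays, so their separation also reflects that selection. Without the filter, 22 of the 37 members, or 59.5%, were brighter on every stored array, against 36.9% of all 1881 miRNAs. After normalization, 17 of the 19 tested members were called higher in stored than in fresh DNase-treated RNA and none lower, beside 60.4% of all 631 tested miRNAs called higher and 21.6% lower (limma, Benjamini-Hochberg adjusted p under 0.05 and a change of at least 1 glog2). glog2 is a log2-like scale on which a change of 1 is about 2-fold at high signals. The median change was 4.65 over the members, 2.47 over all tested miRNAs and 3.53 over the 307 other tested miRNAs numbered 3000 or above. For the 141 numbered below 300, with let-7, it was -2.71. The shares called higher were 74.3% of these 307 and 19.1% of these 141. Other normalizations gave a member median from 0.39 (normexp) to 5.42 (spike-in features). The normexp setting corrects background spot by spot and adds an offset of 50 before log2 and quantile normalization.

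A change against a group without detection depends on values below background. For the 12 tested members detected on no fresh DNase-treated array, a lower limit of the fold was therefore computed. It was set against the higher of the member's own value and the dimmest detected signal on each array. It used the main normalization alone and left out the spread between arrays. Where a member's own values were the higher ones, the limit is about the fitted change itself, as for mmu-miR-5131 and mmu-miR-5119. These lower limits ran from 1.45-fold to 61.5-fold, and with them in place of the fitted changes the median of the 19 was 3.12.

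mmu-miR-5126 stood at 118, 83.4 and 107 units in fresh DNase-treated RNA of mice 7, 9 and 10, and at 22724, 19748 and 14869 units after storage. The 2 groups lay far apart in every mouse. It rose by 5.69 ± 0.49 glog2 (SE; limma, adjusted p = 3.51e-09).

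mmu-miR-5128 stood at 3.27, 3.04 and 10.2 units in fresh and 3766, 6932 and 750 units in stored DNase-treated RNA. The stored arrays of mice 7 and 9 were brighter than that of mouse 10, and the groups did not overlap. Its change of 7.15 ± 0.61 glog2 (SE; limma, adjusted p = 3.51e-09) was the largest fitted change among the 7 members detected on at least 1 array of each group. The 12 members without detection in fresh RNA have only lower limits and take no rank beside it. By mouse it was 7.99, 8.72 and 4.73 in mice 7, 9 and 10.

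mmu-miR-5131 gave 1.95, 1.67 and 1.48 units in fresh RNA, not detected, and 720, 661 and 289 units after storage. Its lower limit was 61.5-fold, the largest of these limits. This is about its fitted change of 5.94 ± 0.34 glog2 (SE; limma, adjusted p = 4.04e-11) and no stricter bound, since it rests on the member's own undetected values.

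mmu-miR-5135 was below zero in fresh RNA, at -0.933, -1.18 and -1.01 units after background subtraction, and 13.6, 21.5 and 5.71 units in stored RNA. Its fitted change of 6.43 ± 0.74 glog2 (SE; limma, adjusted p = 1.15e-07) started from below background, and its lower limit was only 2.51-fold. It is among the 7 members that met the detection filter only through the stored arrays, so its p-value also reflects that selection.

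mmu-miR-5121, which lies in Snord33, had 2.38, 2.06 and 24.2 units in fresh and 884, 950 and 599 units in stored DNase-treated RNA of mice 7, 9 and 10. The fresh array of mouse 10 was brighter than those of mice 7 and 9. The member rose by 5.27 ± 0.52 glog2 (SE; limma, adjusted p = 1.94e-08), by 3.23 in mouse 10 and by over 6 in the others, at 6.27 and 6.32.

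The other members called higher were mmu-miR-5118 (5.40 glog2, at least 7.41-fold), mmu-miR-5112 (5.29), mmu-miR-5130 (5.08, at least 18.7-fold), mmu-miR-5132-5p (4.89, at least 7.4-fold) and mmu-miR-5119 (4.65, at least 25-fold). They were followed by mmu-miR-5107-5p (4.31), mmu-miR-5113 (4.06, at least 3.73-fold), mmu-miR-5122 (3.57, at least 6.52-fold) and mmu-miR-5133 (3.46, at least 2.04-fold). mmu-miR-5103 (3.46), mmu-miR-5120 (3.36, at least 8.68-fold) and mmu-miR-5116 (3.02, at least 6.41-fold) completed the 17. Each of the 17 rose in all 3 mice. The 7 members that met the detection filter only through the stored arrays are all among the 17, so their calls also reflect that selection.

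Members differed in which mouse was brightest after storage, as in 3 examples picked after their values were seen. mmu-miR-5107-5p gave 371, 569 and 85.9 units on the stored DNase-treated arrays of mice 7, 9 and 10, dimmest in mouse 10. mmu-miR-5132-5p gave 19.8, 32.9 and 85.5 units on the same arrays, brightest in mouse 10, and mmu-miR-5103 gave 81.5, 77.6 and 158. The same arrays thus held members ranked in opposite order.

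The arms of the mmu-miR-5132 hairpin, which lies within Irak1, a kinase gene of innate immune signalling gave different values. The 5p arm was called higher, as above. The 3p arm gave 2.03, 2.14 and 2 units in fresh and 5.72, 9.97 and 4.94 units in stored DNase-treated RNA, yet its change after normalization was -0.27 ± 0.30 glog2 (SE; limma, adjusted p = 0.396). Stored arrays were scaled down relative to fresh arrays by the normalization, with array factors of 0.894 to 1.4 against 3.57 to 4.1. Scaled to the spike-in features, the 3p arm was called higher, by 1.68 glog2, so its direction depends on the scaling. mmu-miR-5099 was also not called (0.93 glog2; limma, adjusted p = 0.146), and its change was -0.45 in mouse 7 and 2.65 in mouse 10.

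**Figure D3:**
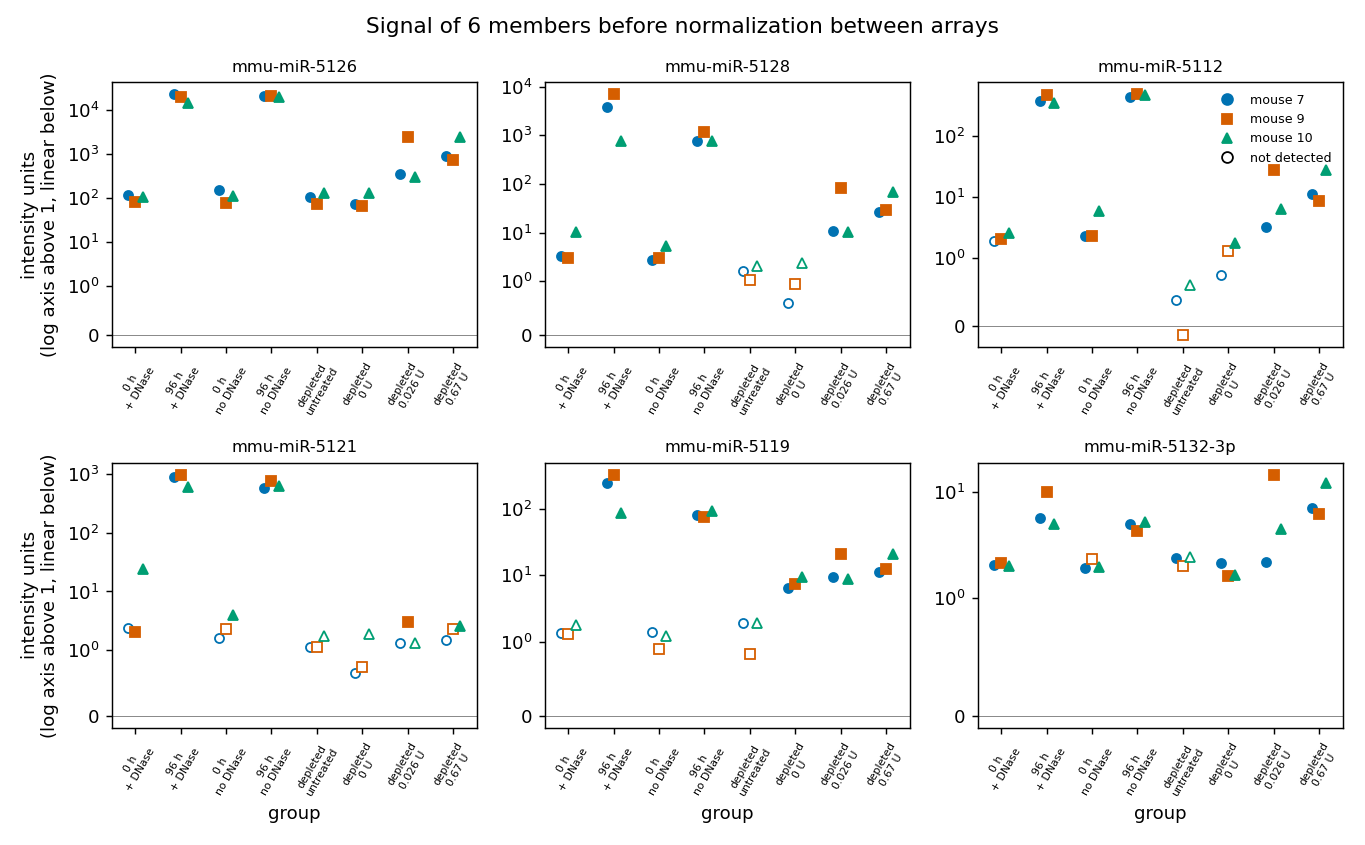
Signal of 6 members on the 24 arrays in intensity units before normalization between arrays (log axis above 1, linear below; colours and shapes are mice, open symbols not detected). mmu-miR-5126 reaches 14869 to 22724 units after storage and 307 to 2507 with RNase, while mmu-miR-5121 reaches 560 to 950 after storage and stays at 1.32 to 3.08 with RNase.

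DNase digestion was compared because fragments of DNA could also hybridize. At 0 h no tested member and none of all 631 tested miRNAs differed between RNA without and with DNase (limma), with 0 members and 30 miRNAs at an unadjusted p under 0.05. The rank test, the other test run, cannot pass its threshold with 3 arrays against 3, so its count of 0 says nothing. In RNA without DNase 17 of the 19 members were called higher after storage and none lower, beside 60.5% of all tested miRNAs called higher and 23.0% lower, with a median member change of 4.51. Of the other miRNAs numbered 3000 or above, 74.3% were called higher. Among the 17 members, 16 were called in both preparations. mmu-miR-5120 was called with DNase alone (without DNase 1.30 glog2; limma, adjusted p = 0.0507) and mmu-miR-5099 without DNase alone (1.61 glog2; limma, adjusted p = 0.0151). Both preparations used the same livers. No member's storage change differed between the preparations when the difference itself was tested in limma. The smallest adjusted p was 0.131, for mmu-miR-5107-5p, which changed by 4.31 glog2 with and 2.09 without DNase, and 3 of the 19 members had an unadjusted p under 0.05. Over all 631 tested miRNAs 6 were called higher without DNase (0.951%) and 1 lower (0.158%), and 87 had an unadjusted p under 0.05.

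Among stored samples, 2 of the 19 members were lower without DNase than with it and none higher, beside 4.60% of all tested miRNAs called lower and 6.18% called higher. mmu-miR-5119 fell by 1.05 glog2 (limma, adjusted p = 0.0232), and mmu-miR-5120 fell by 1.90 (limma, adjusted p = 0.0498). mmu-miR-5120 gave 74.1, 88.9 and 14.6 units with DNase and 10.3, 5.1 and 20.2 without it in mice 7, 9 and 10, so that mouse 10 did not share the drop. Neither member was called when mouse 7 or mouse 9 was left out, and 5 members were called lower when mouse 10 was left out. The shares of all tested miRNAs called in these subsets are not given. With the mouse as a replicate block mmu-miR-5119 was the 1 call that remained.

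Few members were detected in depleted RNA. Untreated depleted RNA had 1.67 ± 0.577 (SD, n = 3) detected members, and fresh total RNA with DNase 5.67 ± 1.53. Over all miRNAs the numbers were 203 ± 23.9 and 299 ± 12.1 (SD, n = 3). mmu-miR-5126 gave 104, 72.7 and 131 units there, beside 118, 83.4 and 107 in fresh total RNA, ranges that overlap (change 0.04 ± 0.49 glog2, SE; limma, adjusted p = 0.979). Among the tested members 1 was called higher and 2 lower, beside 5.39% and 24.4% of all tested miRNAs. The calls for mmu-miR-5132-5p (higher) and mmu-miR-5118 (lower) compared arrays on none of which the member was detected, and have no fold. mmu-miR-5112 fell by 1.32 glog2 (limma, adjusted p = 0.0201), from 1.89, 2.02 and 2.56 units, 2 of them detected, to 0.379, -0.136 and 0.608, none detected. It was not called when any 1 mouse was left out, and without mouse 7 no member was. With the mouse as a replicate block mmu-miR-5121 was also called lower (-1.36 glog2). The median change was 0.04 over the members and -0.17 over all tested miRNAs. The 141 miRNAs numbered below 300 had a median of -2.30. These fresh arrays also served the storage comparison.

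The incubation at 37 °C without RNase moved 1 member. mmu-miR-5119 gave 1.91, 0.833 and 1.91 units in untreated depleted RNA, not detected, and 6.49, 7.48 and 9.39 units at 0 U, detected on all 3 arrays. It rose by 2.16 ± 0.30 glog2 (SE; limma, adjusted p = 0.000168), at least 4.37-fold, in all 3 mice. It was the only call upwards among all 631 tested miRNAs, or 0.158%, and was not called without mouse 7. The 0 U sample had also been purified again, so incubation and purification cannot be told apart.

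The next question was which members appear when depleted RNA is cut by RNase. The RNase arrays held 10.3 ± 4.93 (0.026 U) and 13 ± 1.73 (0.67 U) detected members, and the 0 U arrays 5.67 ± 3.79 (SD, n = 3). Over all miRNAs these numbers were 312 ± 83.4, 356 ± 43.5 and 215 ± 19.9 (SD, n = 3). The RNase arrays had 6 more detected members than the 0 U arrays, which did not pass the test (two-sided exact permutation test within mice, p = 0.111, smallest possible 0.037). This test too exchanged single arrays within each mouse. In intensity units 10 of the 37 members, or 27%, were brighter on every RNase array than on every 0 U array, against 14.6% of all miRNAs. Over both doses 11 of the 19 tested members (57.9%) were called higher and none lower, beside 44.7% of all tested miRNAs called higher and 0.00% lower. Of the other miRNAs numbered 3000 or above 58.3% were called higher, about the share of the members. The median change was 1.75 over the members, 0.69 over all tested miRNAs and 1.67 over the other miRNAs numbered 3000 or above. The member median depends on the normalization and was 0.40 with the 75th percentile of detected miRNAs and 0.09 with normexp. Without mouse 9 the count was 9.

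mmu-miR-5128 gave 0.606, 0.944 and 2.42 units at 0 U, not detected. It gave 10.9, 84.2 and 10.3 units at 0.026 U and 26.6, 29.4 and 67.9 at 0.67 U in mice 7, 9 and 10. All 6 RNase arrays lay above the 0 U arrays. It rose by 3.47 ± 0.53 glog2 (SE; limma, adjusted p = 1.44e-05), at least 10.8-fold, and by 3.02 without mouse 9.

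mmu-miR-5126 gave 75.1, 68 and 129 units at 0 U. It gave 359, 2507 and 307 units at 0.026 U and 918, 755 and 2433 units at 0.67 U. No RNase array overlapped the 0 U arrays. The rise was 2.91 ± 0.42 glog2 (SE; limma, adjusted p = 8.63e-06), and 2.51 without mouse 9.

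mmu-miR-5112 gave 0.757, 1.3 and 1.79 units at 0 U, only the last detected. It gave 3.21, 27.5 and 6.45 units at 0.026 U and 11.1, 8.56 and 27.8 at 0.67 U, all detected. It rose by 2.12 ± 0.37 glog2 (SE; limma, adjusted p = 6.42e-05), and by 1.97 without mouse 9.

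mmu-miR-5120 gave 0.621, 0.35 and 1.87 units at 0 U. It gave 2.27, 29.5 and 1.77 units at 0.026 U and 8.06, 10.7 and 25.6 at 0.67 U, so that the 0.026 U array of mouse 10 lay within the range of the 0 U arrays. The rise of 2.12 ± 0.52 glog2 (SE; limma, adjusted p = 0.00199) was 1.39 without mouse 9.

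Of the other calls, mmu-miR-5130 (1.94 glog2, at least 2.44-fold), mmu-miR-5103 (1.75) and mmu-miR-5132-3p (1.15) were detected on all 3 arrays at 0.67 U. mmu-miR-5113 (3.82) was detected on 2 and mmu-miR-5135 (2.91) on 1 of the 6 RNase arrays, with lower limits of 1.37-fold for the first and none above 1 for the second. mmu-miR-5122 (3.00) and mmu-miR-5118 (2.81) were called although no RNase or 0 U array detected them, so no fold is given. mmu-miR-5118 and mmu-miR-5132-3p were not called without mouse 9. Not called were mmu-miR-5133 (1.63), mmu-miR-5099 (1.09), mmu-miR-5107-5p (0.99), mmu-miR-5132-5p (0.78), mmu-miR-5131 (0.76), mmu-miR-5119 (0.32), mmu-miR-5121 (0.21) and mmu-miR-5116 (0.19). With lower limits in place of fitted changes, the median of the 15 members that have a value or a limit above 1 was 1.09.

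By single dose, 10 members were called higher at 0.026 U (36.6% of all tested miRNAs) and 11 at 0.67 U (44.8%). For the other miRNAs numbered 3000 or above these shares were 47.6% and 58.3%. At 0.026 U only 4 were called without mouse 9, namely mmu-miR-5122, mmu-miR-5126, mmu-miR-5128 and mmu-miR-5130. The share of all tested miRNAs called in that subset is not given. With the mouse as a replicate block mmu-miR-5120 was no longer called at 0.026 U. These counts carry the conflict in the labels of mouse 9.

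**Figure D4:**
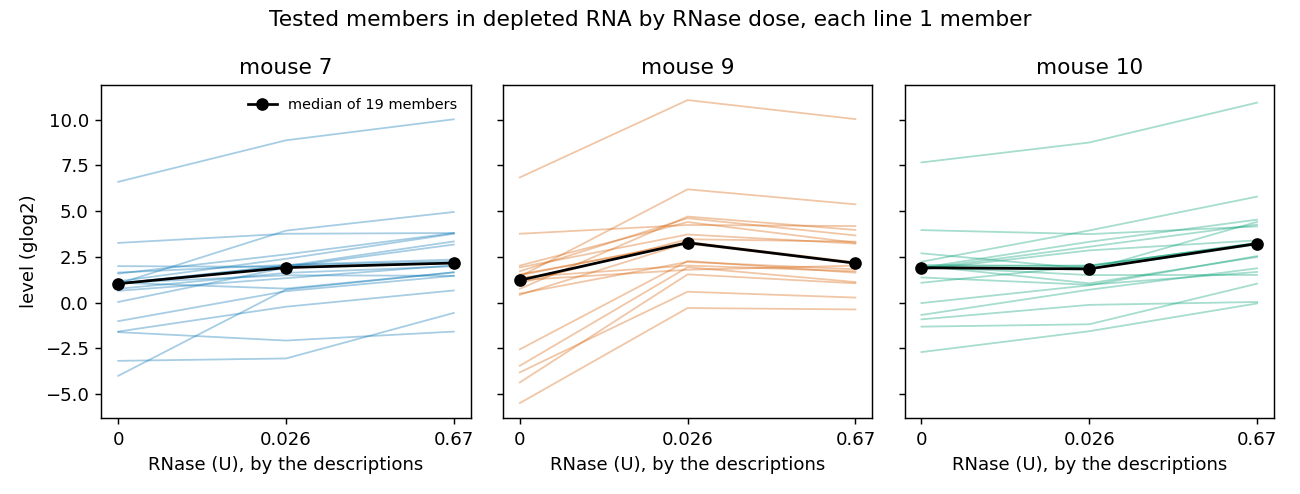
Level (glog2) of the 19 tested members (thin lines) and their median (black) at 0, 0.026 and 0.67 U of RNase in each mouse, with doses as in the descriptions. Between 0.026 U and 0.67 U the median of the paired differences is 0.89 in mouse 7 and 1.25 in mouse 10, and -0.64 in mouse 9.

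Storage and RNase were then set against each other, with no array in common. Of the 17 members called higher after storage with DNase, 10 were also called with RNase (58.8%), which were 90.9% of the 11 called with RNase. Over all tested miRNAs these shares were 70.6% and 95.4%. Across the 19 members the changes correlated at 0.32 (Pearson) and 0.31 (Spearman), and across all 631 tested miRNAs at 0.70 and 0.74. These describe miRNAs measured on the same normalized arrays. The starting RNA differed, since stored tissue kept its small RNAs and the depleted RNA had lost most of them.

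When the difference between the storage and the RNase change was tested, 13 members changed more with storage and 1 less, beside 36.5% and 22.3% of all tested miRNAs. Of the 13, mmu-miR-5116, mmu-miR-5118, mmu-miR-5130 and mmu-miR-5135 met the detection filter only through the stored arrays, a selection that favours a larger storage change. Among the other miRNAs numbered 3000 or above, 43.3% changed more with storage and 4.23% less. The median difference was 2.84 over the members, 0.91 over all tested miRNAs and 1.38 over the other miRNAs numbered 3000 or above.

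The largest fitted differences were those of mmu-miR-5131 (5.18 ± 0.45 glog2, SE; limma, adjusted p = 6.11e-08) and mmu-miR-5121 (5.06 ± 0.69, SE; adjusted p = 7.58e-06). mmu-miR-5131 was detected on no fresh DNase-treated array, so its difference rests on a level below detection and takes no rank beside that of mmu-miR-5121. mmu-miR-5131 gave 2.39, 9.92 and 2.14 units at 0.026 U and 3.57, 2.59 and 11.1 at 0.67 U, and 289 to 720 units in stored DNase-treated RNA. mmu-miR-5121 gave 1.34, 3.08 and 1.32 units at 0.026 U and 1.49, 2.29 and 2.63 at 0.67 U, detected on 2 of these 6 arrays. Neither member came near its stored level on an RNase array.

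mmu-miR-5119 followed, with a fitted difference of 4.32 ± 0.39 glog2 (SE; limma, adjusted p = 7.59e-08). It too was detected on no fresh DNase-treated array. Its RNase change was counted from the 0 U level, which already stood above untreated depleted RNA. At 8.84 to 21.3 units its 6 RNase arrays lay above the untreated arrays and below the 74.6 to 323 units of the stored arrays. Under quantile normalization its RNase change was -1.35 and called lower, so its direction with RNase depends on the scaling.

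The other members with a larger storage change were mmu-miR-5132-5p (4.11 glog2), mmu-miR-5128 (3.68), mmu-miR-5135 (3.52), mmu-miR-5107-5p (3.32), mmu-miR-5112 (3.17), mmu-miR-5130 (3.14), mmu-miR-5116 (2.84), mmu-miR-5126 (2.79), mmu-miR-5118 (2.59) and mmu-miR-5103 (1.71). Among them mmu-miR-5132-5p, mmu-miR-5135, mmu-miR-5130, mmu-miR-5116 and mmu-miR-5118 were detected on no fresh DNase-treated array. Their differences rest on levels below detection and have no lower limit. The mean of mmu-miR-5132-5p was -1.19 glog2 in fresh DNase-treated RNA and 1.05 at 0 U, and that of mmu-miR-5135 -4.29 and -2.43. The changes of mmu-miR-5128, mmu-miR-5126, mmu-miR-5112, mmu-miR-5130, mmu-miR-5103, mmu-miR-5135 and mmu-miR-5118 were called with storage, with RNase and for the difference, the RNase call of mmu-miR-5118 without detection on any array compared. No difference was called for mmu-miR-5133 (1.83), mmu-miR-5120 (1.23), mmu-miR-5122 (0.57), mmu-miR-5113 (0.24) and mmu-miR-5099 (-0.16). mmu-miR-5132-3p was the exception in the other direction, with -1.42 ± 0.39 glog2 (SE; limma, adjusted p = 0.00438), and this call was lost without mouse 10 and when arrays were scaled to the spike-in features.

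**Figure D5:**
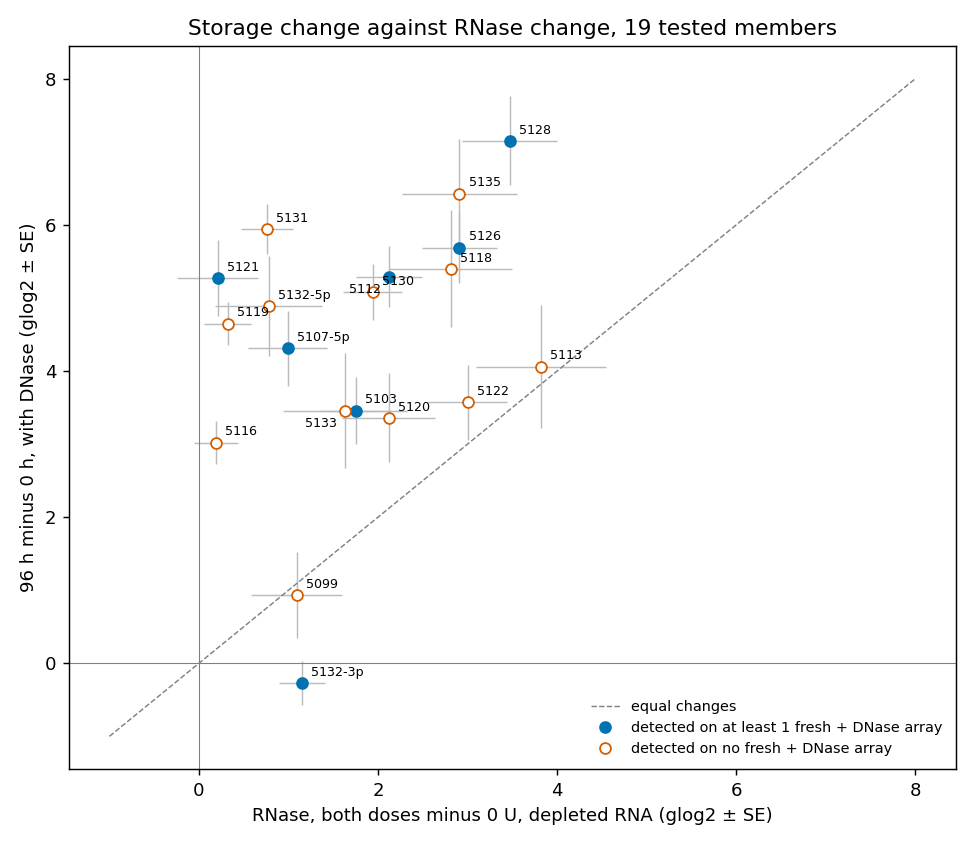
Storage change with DNase (y axis) against the RNase change over both doses (x axis) for the 19 tested members, both in glog2 with SE; the dashed line marks equal changes and open symbols mark members detected on no fresh DNase-treated array. mmu-miR-5131 and mmu-miR-5121 lie high on the left, at 5.94 and 5.27 against 0.76 and 0.21, and mmu-miR-5132-3p lies below the line, at -0.27 against 1.15.

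Each member was read by more than 1 probe, and the 19 tested members had 40 probes. For 18 members all probes were brighter on every stored than on every fresh array, and for mmu-miR-5099 only some were. With RNase all probes were brighter than at 0 U for 7 members, namely mmu-miR-5103, mmu-miR-5112, mmu-miR-5113, mmu-miR-5122, mmu-miR-5126, mmu-miR-5128 and mmu-miR-5130. For mmu-miR-5132-3p and mmu-miR-5135 this held for some of the probes, and for 10 members for none. No count by probe is given over all miRNAs. By summed signal, 36.9% of all 1881 miRNAs were brighter on every stored array and 14.6% on every RNase array. Of the 19 members, 7 met the detection filter only through the stored arrays, so their separation with storage also reflects that selection.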

How the data were processed

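Per the file headers, the authors scanned 24 one-colour arrays with Agilent Feature Extraction 10.10.1.1. The files deposited for single arrays hold background-subtracted fluorescence intensity before any scaling between arrays, and flags for spots and detection. The authors also deposited a table of all arrays on a log2 scale after variance stabilizing normalization (vsn), used here as an alternative.

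The signal was the total gene signal where detected and otherwise the sum over probes. vsn was written anew in Python 3.11.15 and fitted to all 1881 miRNAs. Its values differed from the deposited ones by 0.0956 (SD), with a lowest correlation on any array of 0.9998. The unit is called glog2. The vsn factors of stored arrays were 0.894 to 1.4 and those of fresh arrays 3.57 to 4.1, which lowers stored values at equal intensity. The 631 miRNAs detected on at least 5 of 24 arrays entered limma 3.58.1 (R 4.3.3), in 1 fit of 8 group means with a variance trend. A call needed a change of at least 1 and a two-sided p under 0.05 after Benjamini-Hochberg adjustment over all 631. The scripts were tested on simulated data.

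The members and lists were chosen with earlier results of these data known. Every tested member is named with a value. Values per array are given for members called in storage with DNase or RNase and detected on all 3 arrays of a compared group, the 4 largest changes in each, and for mmu-miR-5103, mmu-miR-5107-5p, mmu-miR-5119, mmu-miR-5121, mmu-miR-5132-3p and mmu-miR-5132-5p, which were picked after their values were seen, as were the values of mmu-miR-5112 in depletion, of mmu-miR-5120 with DNase omitted and of mmu-miR-5131 outside storage. Lower limits set the mean of the brighter group against, on each array of the undetected group, the higher of the member's own value and the lowest detected signal. They were computed on the vsn values alone, without the error of the means, and hold for that scaling only. The number of arrays limits the precision.

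Arrays of 1 mouse come from the same liver, so the animal numbers pair them. After removing group means, deviations correlated at 0.0914 on average between arrays of 1 mouse and -0.0449 between mice. No 2 arrays were identical. Other normalizations, filters, fits, the rank test of the methods and leaving out each mouse were tried. Figures were drawn with matplotlib 3.10.9.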

Additional observations from a re-analysis of the deposited data

Results flagged for a closer look

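The 4 members detected on 1 to 4 arrays stayed outside the tests, and each was detected only on the stored DNase-treated arrays of mice 7 and 9, above its level in fresh RNA. mmu-miR-5104 reached 19.2 units there (mouse 9), and at most -0.648 on a fresh array. mmu-miR-5110 reached 13.2 units in mouse 9, and at most 0.0297 on a fresh array. mmu-miR-5136 reached 11.4 units in mouse 9, and mmu-miR-5134-5p 6.82. On the stored DNase-treated array of mouse 10 the 4 gave 1.09, 1.81, 0.693 and -2.17 units in this order, none detected. The difference between mice was not tested.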

How the results depend on the processing

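Counts are of tested members called higher or lower. The deposited table gave the main counts within 1.5 times throughout. Storage calls upwards stayed between 12 and 23 in both preparations except under normexp (5 and 5) and the rank test (0 and 0), which cannot pass with 3 arrays against 3. Calls downwards with storage, 0 in the main fit of each preparation, were 1 and 1 with scaling to the 75th percentile over every miRNA, 1 and 1 with quantile normalization, and 2 and 2 without a filter, when all 37 were tested. mmu-miR-5132-3p turned from -0.27 to 1.68 (with DNase) and from -0.56 to 1.28 (without DNase) when scaled to the spike-in features. The other normalizations moved the median storage change of all tested miRNAs with DNase from 2.47 to between 0.14 (normexp, with its offset of 50) and 3.39 (spike-in features), and that of the members from 4.65 to between 0.39 and 5.42. For RNase the median of the members moved from 1.75 to 0.40 and 0.78 with the percentiles of detected and of all miRNAs, 0.81 with quantile normalization, 1.52 with the spike-in features and 0.09 with normexp, and that of all tested miRNAs from 0.69 to 0.00 with both percentiles and quantile normalization. For the detected members per array, leaving out a mouse gave 13.8 to 15.5 (storage) and 4 to 8.5 (RNase), and no p under 0.05 is possible with 2 mice.

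Lower calls for omitted DNase at 96 h numbered 4 with the 75th percentile of all miRNAs, 1 with spike-in scaling, 1 without a filter, 0 with normexp, 0 in a fit of the compared groups and 0 by the rank test, and 0 to 5 without 1 mouse. With the mouse as replicate block 1 remained, mmu-miR-5119; the block moved no other count by more than 1.5 times. For depletion, higher calls were 9 with the 75th percentile of detected miRNAs, 0 with that of all miRNAs, 2 with quantile normalization, 0 with spike-in scaling, 0 by the rank test and 0 to 1 without 1 mouse. Lower calls were 0 with the 75th percentile of detected miRNAs, 0 with spike-in scaling, 0 with normexp, 0 by the rank test and 0 to 2 without 1 mouse. For the 0 U incubation 2 members were called with either percentile, 2 with quantile normalization and 0 by the rank test, and 0 to 1 without 1 mouse.

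Higher calls with RNase were 6 with the 75th percentile of detected miRNAs, 7 with that of all, 7 with quantile normalization, 1 with normexp and 0 by the rank test. A lower call appeared with quantile normalization (1) and without a filter (1). At 0.026 U higher calls were 4 and 6 with these percentiles, 6 with spike-in scaling, 0 with normexp, 2 in a fit of the compared groups, 0 by the rank test and 4 to 13 without 1 mouse, with 1 lower call each under the first percentile and quantile normalization. Taking the doses of mouse 9 from the titles gave 9 calls at 0.026 U and 13 at 0.67 U, within 1.5 times of the main counts. At 0.67 U they were 7 with the first percentile, 1 with normexp and 0 by the rank test. Lower calls at this dose were 1 with the first percentile, 1 with quantile normalization and 2 without a filter. mmu-miR-5119 turned to -1.35 (both doses), -1.15 (0.026 U) and -1.55 (0.67 U) with quantile normalization and to -1.02 (0.67 U) with the first percentile. For storage minus RNase, normexp left 5 higher calls, and the lower call of mmu-miR-5132-3p became 0 with the first percentile, 0 with spike-in scaling, 0 with normexp and 0 to 1 without 1 mouse. The cause of these shifts was not tested. Members detected on no array of a group have only a lower limit there.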
